A study of Homo sapiens with 2 samples.

Results

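The siAATF-only peaks at coding promoters were 403 peaks in the list called from siAATF cells. They were selected on the peak calls themselves: each reached to within 1 kb of a protein-coding transcript start, upstream or downstream, and overlapped no peak of the siControl list. They made up 3.46% of the 11643 siAATF peaks at coding promoters on chromosomes 1 to 22 and X, and 403 of all 18295 siAATF peaks on those chromosomes. The mirror set, siControl peaks at coding promoters with no overlap in siAATF, held 451 of 11690 peaks, or 3.86%. The 403 peaks touched the promoters of 422 genes, 2.14% of the 19756 coding genes, and the mirror set touched 485 genes, 2.45%. A promoter peak of any kind in siControl was carried by 61.2% of coding genes.

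The study asked whether loss of AATF changes where NRF-1 sits on chromatin in glioblastoma cells. U251 cells, an established human glioblastoma line, received either siControl, a control oligonucleotide, or siAATF, an oligonucleotide that depletes AATF mRNA (siAATF #1 per the study's methods), and chromatin was precipitated with an NRF-1 antibody. The sample labels name U251, whereas the design text of the series names U138. There was 1 peak list per condition, so no spread between replicates could be computed, and a peak missing from a list may lie just under its calling threshold. No test between siControl and siAATF was therefore made: differences between sets of peaks are given with exact 95% intervals, which cover counting error only, and depth is unknown.

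NRF-1 (nuclear respiratory factor 1) is a transcription factor that binds a GC-rich palindrome in promoters, and many nuclear genes for the respiratory chain and for mitochondrial translation are among its classical targets. AATF is a nuclear protein that acts as a transcriptional cofactor and also takes part in ribosome production and in the response to DNA damage. Most coding promoters in human cells lie in CpG islands, stretches of DNA that are rich in G, C and CpG steps and usually free of methylation.

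Sequences of the strongest of these peaks are shown because they let the base composition be seen directly. Each is a stretch of 150 bases on the + strand of hg19 from inside the peak, with every CpG step in capitals, and none holds the NRF-1 palindrome.
TARS2, chr1:150459735-150459884: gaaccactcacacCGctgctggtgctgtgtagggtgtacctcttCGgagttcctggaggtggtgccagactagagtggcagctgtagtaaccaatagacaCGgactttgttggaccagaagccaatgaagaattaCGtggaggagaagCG
MYSM1, chr1:59165763-59165912: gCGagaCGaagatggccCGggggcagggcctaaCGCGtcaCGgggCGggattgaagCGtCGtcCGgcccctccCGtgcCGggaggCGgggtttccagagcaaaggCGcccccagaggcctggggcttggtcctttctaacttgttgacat
ZNF501, chr3:44770904-44771053: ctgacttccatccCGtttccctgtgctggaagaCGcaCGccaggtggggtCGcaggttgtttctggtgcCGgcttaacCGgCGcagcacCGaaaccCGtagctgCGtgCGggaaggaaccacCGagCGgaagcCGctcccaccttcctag
XRN1, chr3:142166905-142167054: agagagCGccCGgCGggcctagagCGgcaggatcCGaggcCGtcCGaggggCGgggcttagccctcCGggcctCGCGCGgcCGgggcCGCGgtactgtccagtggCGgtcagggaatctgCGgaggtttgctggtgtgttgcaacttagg
EMP2, chr16:10674256-10674405: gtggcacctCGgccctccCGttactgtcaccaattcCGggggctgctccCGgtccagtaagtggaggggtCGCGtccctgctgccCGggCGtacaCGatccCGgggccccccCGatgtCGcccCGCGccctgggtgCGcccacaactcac
GEMIN6, chr2:39005108-39005257: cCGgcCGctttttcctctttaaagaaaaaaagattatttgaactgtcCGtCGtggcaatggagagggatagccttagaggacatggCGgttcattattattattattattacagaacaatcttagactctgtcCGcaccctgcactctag
XRN1 had 17 CpG steps in its 150 bases and a GC content of 71.3%, and EMP2 had 15 steps and 72% GC. TARS2, the strongest of the 403 peaks, had 5 steps and 53.3% GC, and GEMIN6 had 6 steps and 42% GC. The strongest peaks thus ran from island-like sequence to sequence poor in CpG.

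The NRF-1 core was searched as GCGCA followed by its reverse complement TGCGC, a palindrome of 10 bases, with up to 1 mismatch. The exact core was found in 0 of the 403 peaks (upper limit 0.911%). It was rare in the other sets too, at 0.222% of the mirror siControl-only peaks and 3.61% of all promoter peaks shared by both lists. Among shared promoter peaks with a siAATF −log10 q under 5 it was in 0.111%. The core with 1 mismatch was found in 2 of the 403 peaks, at WDR74 and ZFP82. Both are given here with 2 examples of the exact core from promoter peaks present in both lists, at NELFCD and AMZ2. The core is in capitals, and each line gives 30 bases of the + strand of hg19.
WDR74, chr11:62608033-62608062: tacagtaataGCGCATGCGTaaataggaga
ZFP82, chr19:36909587-36909616: ctcacggagtGCGCAGGCGCggccagtctc
NELFCD, chr20:57556297-57556326: tccccgcctcGCGCATGCGCcgcgctcgct
AMZ2, chr17:66244192-66244221: gggacgcggtGCGCATGCGCgtgagggctg
Counted from 1 at the 5′ end of the core, WDR74 differed by C10T and ZFP82 by T6G. Neither peak was strong. ZFP82, a zinc finger gene, had a fold enrichment over local background of 3.56 and a −log10 q of 1.71. Here q is the false discovery value that the peak caller gave for the whole broad region. WDR74, a nucleolar protein gene, had 3.38 and 2.18. WDR74 also had a separate siControl-only promoter peak 592 bp away, so its promoter was called in both lists at positions that did not overlap.

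The AP-1 word TGACTCA, read on either strand, is the binding word of FOS and JUN dimers, and 35 of the 403 peaks held it. The 6 of these 35 peaks with the highest fold enrichment are given as examples. In the central 300 bp the word was in 7.69% of the 403 peaks, against 3.14% of all canonical coding starts. Those of the 403 at canonical promoters had it in 3.86%, near the share of all canonical starts, and those at alternative starts only in 16.9%. In each line of 30 bases on the + strand of hg19, 1 occurrence of the word is in capitals, as TGACTCA or as its reverse complement TGAGTCA, and the SAAL1 line holds a further one in lower case.
SEC14L1, chr17:75084837-75084866: agtccgcaggaTGACTCAgggcagccctga
BEST3, chr12:70083029-70083058: tgtgcagactcTGAGTCAgccctctctgct
RAB39B, chrX:154493786-154493815: accacgcactcTGACTCAtcactgacaacc
SAAL1, chr11:18128419-18128448: ttggaggagctTGACTCAttaatgagtcat
LHFPL2, chr5:77843800-77843829: gactcccagccTGAGTCAttcggaaacaga
LEMD1, chr1:205419178-205419207: ccaactcaactTGACTCActtgtgaccggc
SEC14L1, LHFPL2 and LEMD1 had another promoter peak in siControl, and BEST3, RAB39B and SAAL1 had none.

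By the values that the peak caller gave them, the 403 peaks were weak, and these values are a description because the same calls chose the peaks. Fold enrichment over the local background ran from 1.94 at BRAT1 to 6.30 at TARS2, with a median of 3.68 and quartiles of 3.38 and 4.07. The −log10 q ran from 1.06 to 7.67, with a median of 2.27. On a percentile scale of fold enrichment over all siAATF peaks, where 100 is the strongest, the median was 11.4 (95% interval 10.8 to 13.1), and the highest, TARS2, stood at 61.5. The mirror siControl-only set had a median rank of 12 in its own list, a median fold enrichment of 3.75 and a median −log10 q of 2.23, so the 2 sets were alike in strength. Peaks were narrow, with a median width of 302 bp, against 312 bp for siControl-only peaks, 529 bp for weak shared promoter peaks (shared peaks with a siAATF −log10 q under 5) and 856 bp for all shared ones. Weak shared peaks were not matched to the 403 in strength. Their median −log10 q was 3.42 and their median rank 22.8, both higher than in the 403. At most 250 bp wide were 134 of 403 (33.3%), the same share as in the siControl-only set.

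**Figure D1:**
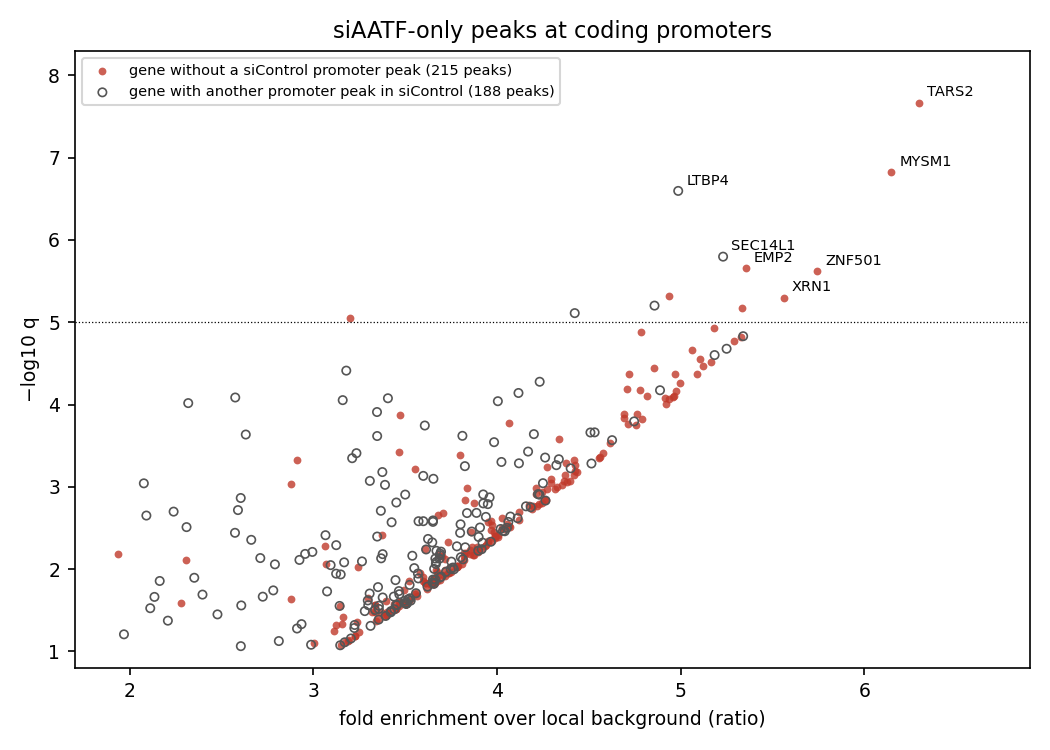
Each point is 1 of the 403 siAATF-only promoter peaks, by fold enrichment over local background (x axis, ratio) and −log10 q (y axis). Filled points are the 215 peaks whose genes had no siControl promoter peak, open points the 188 peaks with a gene that had one, and the dotted line marks a −log10 q of 5, which 12 peaks reached.

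The share of siAATF promoter peaks that were siAATF-only fell steadily with peak strength. It was 48.9% (43 of 88) at a −log10 q from 1 to 1.5, 28.9% (92 of 318) from 2 to 2.5, 9.82% (61 of 621) from 3 to 4, and 1.09% (11 of 1013) from 5 to 7. Above a −log10 q of 10 there were 0 of 7247. The siControl list ran the same course, with 59.6%, 31.6%, 12.4% and 0.626% in those bins. Since neither list has a replicate, differences in calling near the threshold and differences in occupancy cannot be told apart for most of these peaks.

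**Figure D2:**
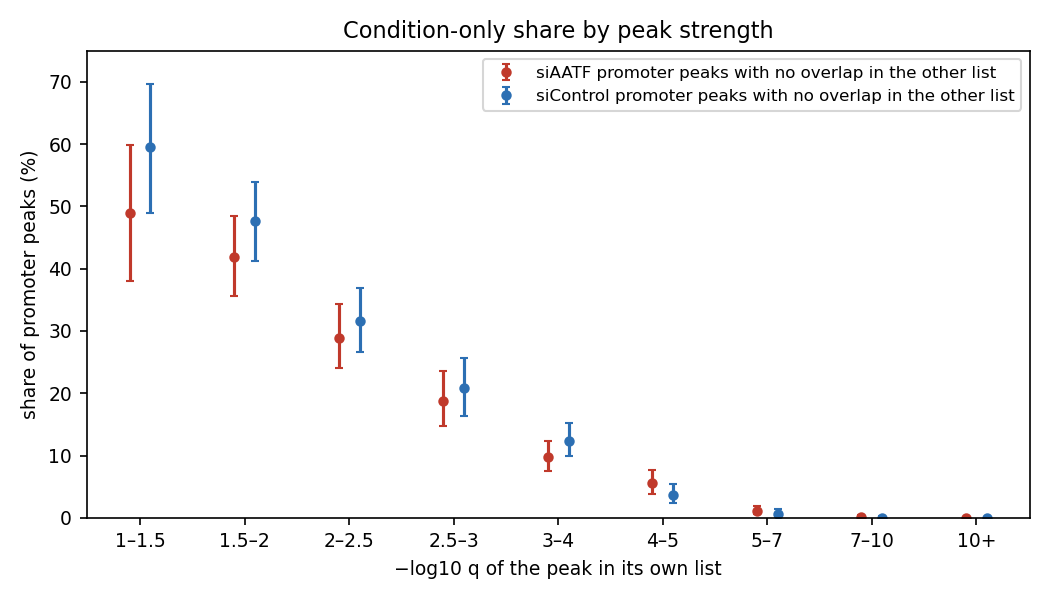
Points give the share of promoter peaks in each list (y axis, percent) that overlapped no peak of the other list, by bins of −log10 q in their own list (x axis), and bars are exact 95% intervals. Both lists fall from 48.9% (siAATF) and 59.6% (siControl) in the lowest bin to 0.0842% or less above a −log10 q of 7.

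Only 12 of the 403 peaks (2.98%) reached a −log10 q of 5: TARS2, MYSM1, LTBP4, SEC14L1, EMP2, ZNF501, PBXIP1, XRN1, HMGB2, LMAN2L, MARK2 and CHAF1A. The peak at TARS2 (chr1:150459619-150460001), which encodes the mitochondrial threonyl-tRNA synthetase, had a fold enrichment of 6.30 and a −log10 q of 7.67. Its midpoint lay 80 bp upstream of the start, and the nearest siControl peak was 27733 bp away. At MYSM1 (chr1:59165607-59165957), a histone deubiquitinase gene, the values were 6.15 and 6.83. The zinc finger gene ZNF501 (chr3:44770801-44771158) followed with 5.74 and 5.62, and XRN1 (chr3:142166702-142167077), the main cytoplasmic exoribonuclease of mRNA decay, with 5.56 and 5.30. These 4 peaks spanned the start of their genes, and none of the 4 genes had a siControl peak at any coding start.

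The next peaks by fold enrichment covered genes of membrane traffic, RNA handling and calcium transport. EMP2 (chr16:10674134-10674714), a tetraspan membrane protein gene, had a fold enrichment of 5.35 and a −log10 q of 5.66. LMAN2L (chr2:97405590-97406088), a lectin of the early secretory pathway, had 5.33 and 5.17, and STAMBP (chr2:74055999-74056634), an endosomal deubiquitinase, had 5.33 and 4.82. A single peak at chr11:71639914-71640231 served both RNF121, an E3 ligase gene, and XNDC1N, with 5.29 and 4.78. Of the 12 peaks with the highest fold enrichment, those of GEMIN6, RUFY3, SEC14L1 and ATP2C1 belonged to genes with another promoter peak in siControl. GEMIN6 (chr2:39005096-39005423), a member of the complex that assembles small nuclear ribonucleoproteins, had 5.34 and 4.83, RUFY3 (chr4:71587488-71587785) 5.25 and 4.68, SEC14L1 (chr17:75084641-75085058) 5.23 and 5.80, and ATP2C1 (chr3:130568949-130569347), the Golgi calcium and manganese pump, a fold enrichment of 5.18.

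The widest peaks were not the strongest. SLC7A11, the cystine and glutamate exchanger, carried the widest peak at 958 bp (chr4:139162760-139163717), yet its fold enrichment was 3.41 and its −log10 q 1.47. Next were ARAP1 at 925 bp, MAMLD1 at 912 bp, ITPRIP at 877 bp and ZNF331 at 857 bp, with −log10 q from 1.47 to 3.64 over the 5 peaks. LTBP4, a latent TGFβ-binding protein gene, had a narrower peak of 352 bp (chr19:41120812-41121163) with a −log10 q of 6.60, the third highest, but its nearer edge lay 990 bp from a start, so it only just met the promoter rule.

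Of the 422 genes, 228 had no siControl peak at any of their coding starts, and at 209 of these the siAATF-only peak lay at the canonical promoter. The start of the canonical transcript itself was spanned at 132 genes by 129 peaks. Beside TARS2, MYSM1, EMP2, ZNF501, XRN1, LMAN2L, STAMBP and RNF121/XNDC1N, the strongest of these by −log10 q were at CHAF1A, VPS37B, BCO1, CCDC32, BBS10, CEP128 and DDX23. CHAF1A, the large subunit of chromatin assembly factor 1, had a fold enrichment of only 3.20 with a −log10 q of 5.05. VPS37B, a subunit of the ESCRT-I sorting complex, had 5.18 and 4.93, and BCO1, the β-carotene cleaving enzyme, had 4.79 and 4.89. BBS10, a chaperonin-like ciliary protein gene, had 5.10 and 4.56, CEP128, a centriolar protein gene, 5.12 and 4.47, and DDX23, a spliceosomal helicase gene, 4.85 and 4.44.

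Further genes without a siControl promoter peak were picked for their known roles after the values were seen, and no theme is claimed from them. Among genes for mitochondrial proteins, PNPT1, a mitochondrial RNA exonuclease, had a fold enrichment of 4.97 and a −log10 q of 4.16, CHCHD10, a cristae protein, 4.21 and 2.98, and PDSS2, an enzyme of coenzyme Q synthesis, 3.89 and 2.23. Of the DNA replication and repair genes, RFC4, a clamp loader subunit, had 5.16 and 4.52, while FANCD2, of the Fanconi anaemia pathway, had 3.62 and 1.83. Genes of the kinetochore and mitosis included CENPH, ZW10 and CDC23, with fold enrichments of 4.82, 4.33 and 4.25. In the interferon response, IRF9 had 4.42 and 3.32, RIGI 3.61 and 1.83 and PARP14 3.86 and 2.27. SPARC, FABP7 and GLUL, all expressed by astrocytic cells, had fold enrichments of 3.86, 3.67 and 3.40, whereas the list of 31 glial and neural markers had 0 genes with a siAATF-only promoter peak.

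The other 194 of the 422 genes (46%, 95% interval 41.1 to 50.9%) did have a promoter peak in siControl, at a position that did not overlap the siAATF-only peak. In the mirror comparison, 170 of 485 siControl-only genes (35.1%, 30.8 to 39.5%) had another promoter peak in siAATF. These 2 intervals do not overlap, though 34 genes belong to both sets. Of all coding genes 61.2% had a siControl promoter peak, but the 46% is not a like share. The selection left out every siAATF peak that overlapped a siControl peak. Genes whose siAATF promoter peaks all overlapped siControl peaks could therefore not enter the 422. The strongest siControl promoter peak of each of these 194 genes was often far stronger than the siAATF-only one. Its −log10 q had a median of 11.7, from 1.33 to 106, and 138 of the 194 reached 5. The closest siControl promoter peak of a gene was not always its strongest. This closest peak lay at a median distance of 2208 bp from the siAATF-only peak, from 3 bp to 639984 bp. At 93 genes the siAATF-only peak was at alternative starts alone and a siControl peak was at the canonical promoter. At 63 genes both conditions had a peak at the canonical promoter, at 26 the order was the opposite, and at 12 neither was canonical.

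In 86 of the 194 genes a siControl peak lay in the window of the same start as the siAATF-only peak. These began with ABR, AGAP3, AGBL5, AHSA1, ALG3, ALG5, AMD1, ARHGAP6, ATXN1, BEGAIN, C15orf61, CA11, CAV1, CFAP298, CFAP298-TCP10L, CLDN6, DIRAS3, DMPK, DUSP10, EEF1AKMT4, EEF1AKMT4-ECE2 and EPHA6. Next in alphabetical order came ERBB4, FGF1, GBX2, GET1, GNAI2, HMG20B, HMGB2, HS6ST2, HTR6, ID1, IFI30, INKA2, IQGAP3, IQSEC2, ITPRIP, KCNH3, KCNK12, KDM2B, KLHL17, KREMEN2, LRRC2 and LTV1. They were followed by LY75, LY75-CD302, MAP1B, MARK2, MDGA1, MFSD12, MYL6, NEURL4, NPTX1, NUMA1, OR1F1, PDE10A, PLXNA2, PPIL1, PPP1R14B, PSMB1, PTPRM, RFX4, RNF182, RNFT2 and RPS14. The list ended with SLC1A5, SLC22A23, SPRING1, SYNPO, TBP, TLK1, TMPO, TNFAIP2, TNFRSF12A, TPBG, TRIB3, TRIM41, TYW1B, VIPAS39, WDFY3, WDR74, ZFP36L2, ZNF442, ZNF613 and ZNHIT2. Several pairs share a peak because a read-through gene repeats its partner's start, as CFAP298-TCP10L, EEF1AKMT4-ECE2 and LY75-CD302 do.

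In the remaining 108 genes the siControl peak was at another start of the gene. The alphabetical order opened with ABHD12, ADGRG1, AHCYL1, AIF1L, ARAP1, ARHGAP27, ARID1B, ATOSA, ATP2B4, ATP2C1, BSCL2, C1orf109, CELSR1, CFL1, CIC, CNTRL, COL12A1, COPZ1, CREM, CUEDC1, CYB561, CYB5R3, DGKA, DGLUCY, DLG4, DNAH5 and DNM1. After these came FAM13A, FBLN1, FCHO1, FRMD4A, GEMIN6, GGA3, GPM6A, GRAMD1B, GSN, HNRNPUL1, IFI16, IFRD1, IL4I1, INF2, IP6K2, IQSEC1, KCNJ6, KCNN3, KIF6, KIFC3, LDB1, LDLRAD4, LEMD1, LHFPL2, LIMCH1, LTBP1 and LTBP4. A further part was made of LTBR, MACF1, MAML3, MICAL2, MMP2, MUS81, MXI1, MYADM, NEK6, NR2E1, NSMF, NUDC, OSTM1, PKM, PLAT, PLCH1, PLOD3, PPP2R1A, PRKCD, PRKD2, RAB11FIP4, RABGAP1L, RFX2, RUFY3, SASH1, SDC3 and SEC14L1. The last were SEMA3B, SEPTIN9, SLC12A5, SLC25A25, SMAD3, SPECC1, ST3GAL5, TCF25, TCF4, TJP3, TLN2, TNS3, TSC22D3, TUB, TXNL1, UBTF, UBXN8, VAC14, VGLL4, WSB2, ZCCHC2, ZNF217, ZNF292, ZNF331 and ZNF394. Examples chosen after the values were seen were TCF4, a bHLH transcription factor gene with a fold enrichment of 4.07 at the siAATF-only peak, SMAD3, a TGFβ signal transducer gene, with 3.67, and CREM, a cAMP-responsive factor, with 3.76. More than 1 siAATF-only promoter peak was carried by 6 of the 422 genes.

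At 34 genes a siAATF-only and a siControl-only promoter peak were present together, so that the gene counted once in each condition-only set. At 22 genes every siControl promoter peak was siControl-only. The closest pair was at LTV1, a ribosome biogenesis gene, where the siAATF peak ended 3 bp from the siControl peak, with fold enrichments of 4.26 and 4.07. PPIL1, a spliceosomal isomerase gene, had a gap of 23 bp with 4.18 and 4.13, and ABR one of 28 bp with 3.89 and 3.56. At such close pairs neighbouring parts of the same promoter were called, each in a different list. Gaps of 75 to 609 bp separated the pairs at PTPRM, BEGAIN, ITPRIP, IQSEC2, ZNHIT2, WDR74 and SLC1A5, the last a glutamine transporter gene with a siAATF −log10 q of 3.75 and a siControl −log10 q of 2.10. SLC25A25, a mitochondrial carrier gene, had its pair 6644 bp apart, with fold enrichments of 3.69 and 3.19. SEPTIN9 had the highest siAATF −log10 q of the 34, at 4.05, with the siControl-only peak 27616 bp away at 3.26.

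Over all 403 peaks, the nearest siControl peak of any kind lay between 3 bp and 1582686 bp away, the farthest at GRM7, with a median of 16357 bp. It was within 500 bp for 41 peaks (10.2%), within 1 kb for 78 (19.4%) and within 100 kb for 351 (87.1%). In the mirror set, 65 peaks (14.4%) had a siAATF peak within 1 kb. Just inside the overlap rule stood LTV1 at a gap of 3 bp, KDM2B at 11 bp and CFAP298 at 13 bp. Just outside it stood PRICKLE3, whose siAATF peak overlapped a siControl peak by 10 bp, then ZNF267 and COL8A1 by 11 bp each. At the edge of the promoter rule, LTBP4, MICAL2 and INKA2 were kept with their nearer edge 990, 986 and 985 bp from a start, while PIEZO2 at 1019 bp, WASL at 1028 bp and GLIS2 at 1071 bp were left out.

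Where the peaks sat relative to the start was not part of the selection beyond the window itself. The midpoint lay upstream of the nearest coding start in 211 of 403 peaks (52.4%, 47.4 to 57.3%), against 162 of 451 siControl-only peaks (35.9%, 31.5 to 40.5%) and 765 of 1804 weak shared promoter peaks (42.4%, 40.1 to 44.7%). The median position was 8 bp upstream for siAATF-only peaks, with a signed distance of -8 bp, and 50 bp downstream for siControl-only peaks. A coding exon held the midpoint of 28 siAATF-only peaks (6.95%, 4.67 to 9.89%) and of 86 siControl-only peaks (19.1%, 15.5 to 23%). Conversely, 93 siAATF-only midpoints (23.1%) lay outside the body of any coding gene, against 56 (12.4%) of the siControl-only ones. Over all shared promoter peaks, 48.8% of midpoints were upstream, 10.2% in a coding exon and 22.2% outside coding genes. The siAATF-only and siControl-only promoter peaks had intervals apart on all 3 measures, but the shared values for upstream and outside positions lay inside the siAATF-only intervals.

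**Figure D3:**
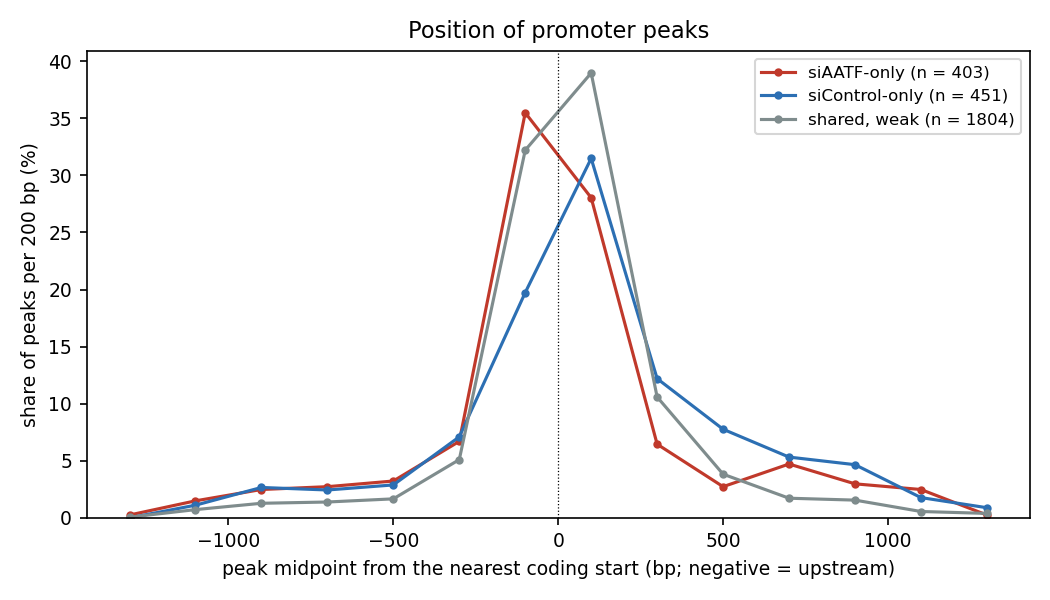
Lines give the share of peaks per bin of 200 bp (y axis, percent) by the distance of the peak midpoint from the nearest coding start (x axis, bp, negative upstream), for siAATF-only (n = 403), siControl-only (n = 451) and weak shared promoter peaks (n = 1804). The siAATF-only line is highest just upstream of the start, and 52.4% of its midpoints are upstream against 35.9% for siControl-only.

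A coding start was spanned by 231 siAATF-only peaks (57.3%, 52.3 to 62.2%), 221 siControl-only peaks (49%, 44.3 to 53.7%) and 81% of the weak shared peaks. Weak shared peaks were wider, with a median of 529 bp against 302 bp for siAATF-only peaks. The part of width and strength in their differences from the siAATF-only peaks, here and in base composition, was not tested. The canonical promoter was touched by 285 of the 403 (70.7%), and the other 118 lay at alternative starts only. By the annotation of their midpoints, 170 of the 403 were intronic (42.2%) and 112 lay in a UTR (27.8%). At divergent promoters, 22 peaks (5.46%) touched coding starts on both strands, against 6.65% of siControl-only and 10.6% of weak shared peaks. Of the 403, 24 touched more than 1 gene.

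Peaks of the siAATF-only set had less GC than those of the other promoter sets, measured over the central 300 bp of every peak. At peaks narrower than 300 bp this window took in flanking bases. The median GC content was 62% (60.7 to 63%), against 67.7% (66.3 to 68.3%) for siControl-only, 67.7% (67 to 68.3%) for weak shared and 71% for all shared promoter peaks. It ran from 38.3% at DNAH5 to 89.7% at JPH3. The ratio of observed to expected CpG steps had a median of 0.667 (0.634 to 0.702), against 0.756 (0.725 to 0.779) for siControl-only and 0.813 for weak shared peaks. Windows with a ratio of at least 0.6 and a GC content of at least 50%, called CpG-rich here, were 234 of 403 (58.1%, 53.1 to 62.9%), 298 of 451 (66.1%, 61.5 to 70.4%) and 82.3%, respectively. For this last share the first 2 intervals overlapped. Across all 19413 canonical coding starts, 68.6% of windows of 300 bp were CpG-rich.

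**Figure D4:**
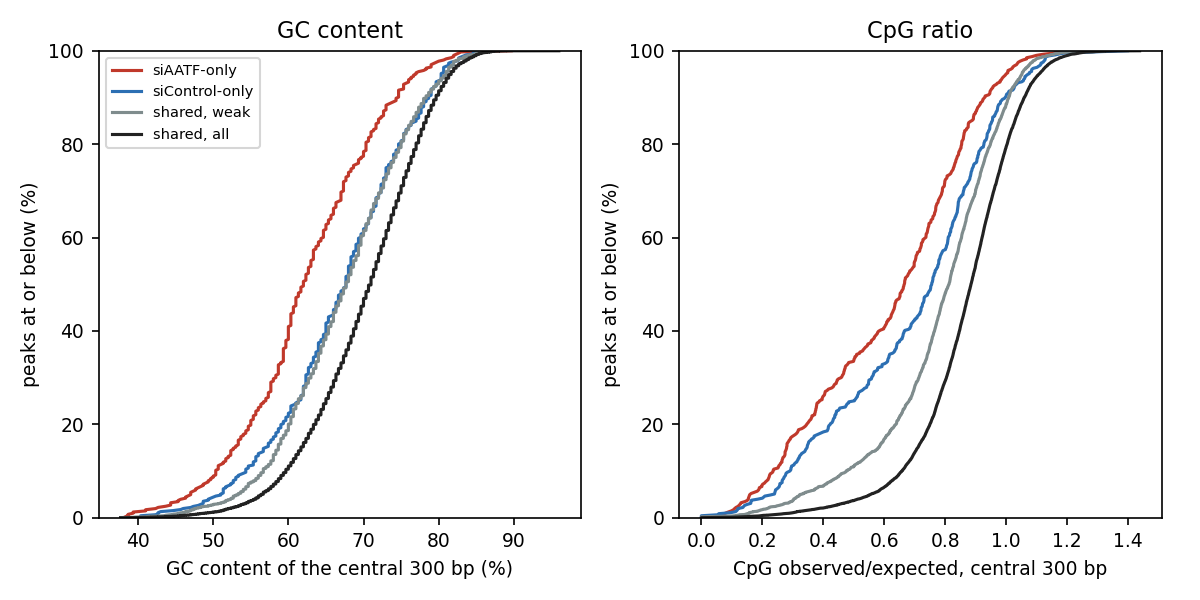
Cumulative curves show the share of peaks (y axis, percent) at or below each GC content (left, percent) and each CpG observed to expected ratio (right) of the central 300 bp, for 4 sets of promoter peaks. The siAATF-only curve lies farthest left in both panels, with medians of 62% GC and a ratio of 0.667.

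Within the 403, composition followed the kind of promoter. At canonical promoters 205 of 285 windows (71.9%, 66.3 to 77.1%) were CpG-rich, and the median CpG ratio was 0.738. At alternative starts only, 29 of 118 (24.6%, 17.1 to 33.4%) were, with a median ratio of 0.443. The siControl-only peaks had 72.4% at canonical promoters, the same within counting error, but 57 of 118 (48.3%, 39.0 to 57.7%) at alternative starts. The intervals of these 2 sets do not meet at alternative starts by this class, but those of the median CpG ratio do (0.372 to 0.472 against 0.438 to 0.644). Weak shared peaks were CpG-rich more often than siAATF-only peaks at both kinds of start, with 87.1% (85.3 to 88.7%) at canonical promoters and 53.5% (47.2 to 59.6%) at alternative starts. GC content differed at canonical promoters too, with medians of 63.3% (62 to 64.7%) for siAATF-only and 68% (66.7 to 69.3%) for siControl-only peaks. Peaks of genes with no siControl promoter peak were CpG-rich in 151 of 215 cases (70.2%, 63.6 to 76.3%), and those of genes with one in 83 of 188 (44.1%, 36.9 to 51.6%). The kind of start differed between these groups. The siAATF-only peak was at alternative starts only in 105 of the 194 genes with a siControl promoter peak. This was so in 19 of the 228 genes without one. The part of this mix in the CpG difference was not tested.

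The NRF-1 core with up to 1 mismatch was rarer in the siAATF-only peaks than at promoters at large. In the central 300 bp it was found in 2 of 403 siAATF-only peaks (0.496%, 0.0602 to 1.78%), 13 of 451 siControl-only peaks (2.88%, 1.54 to 4.88%), 16 of 1804 weak shared peaks (0.887%, 0.508 to 1.44%) and 2077 of 11240 shared promoter peaks of any strength (18.5%, 17.8 to 19.2%). Of all canonical coding starts 9.62% held it in a window of the same length. The control palindrome, GCGCT followed by its reverse complement AGCGC, has the same bases and was found in 5 of 403 (1.24%, 0.404 to 2.87%) and in 11 of 451 (2.44%, 1.22 to 4.32%). The intervals of the siAATF-only and siControl-only sets overlapped for both palindromes. For the core, those of the siAATF-only and weak shared peaks overlapped too. The core is GC-rich and GC content differed between these sets, and the part of GC content in the difference was not tested. A missing core says only that these letters were not in the window.

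The AP-1 word was found in the central 300 bp of 31 siAATF-only peaks (7.69%, 5.29 to 10.7%), 17 siControl-only peaks (3.77%, 2.21 to 5.97%) and 74 weak shared peaks (4.1%, 3.23 to 5.12%). All canonical starts had it in 3.14%, and siAATF-only peaks away from coding promoters in 30.1%. Among the 403 it was concentrated at alternative starts, in 20 of 118 (16.9%, 10.7 to 25%), against 11 of 285 at canonical promoters (3.86%, 1.94 to 6.8%). Weak shared peaks ran the same way, with 11.2% (7.6 to 15.6%) against 2.91%. So did siControl-only peaks, with 7.63% (3.55 to 14%) against 2.4%. Among the 403 the word was also found in 25 of 169 CpG-poor windows (14.8%, 9.81 to 21.1%) and in 6 of 234 CpG-rich ones (2.56%, 0.947 to 5.5%). Weak shared peaks with CpG-poor windows had it in 45 of 320 (14.1%, 10.4 to 18.4%), much the same share, and CpG-poor siControl-only peaks in 12 of 153 (7.84%, 4.12 to 13.3%), with an interval that overlaps. At like CpG content, the siAATF-only peaks did not stand apart from weak shared peaks beyond counting error.

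**Figure D5:**
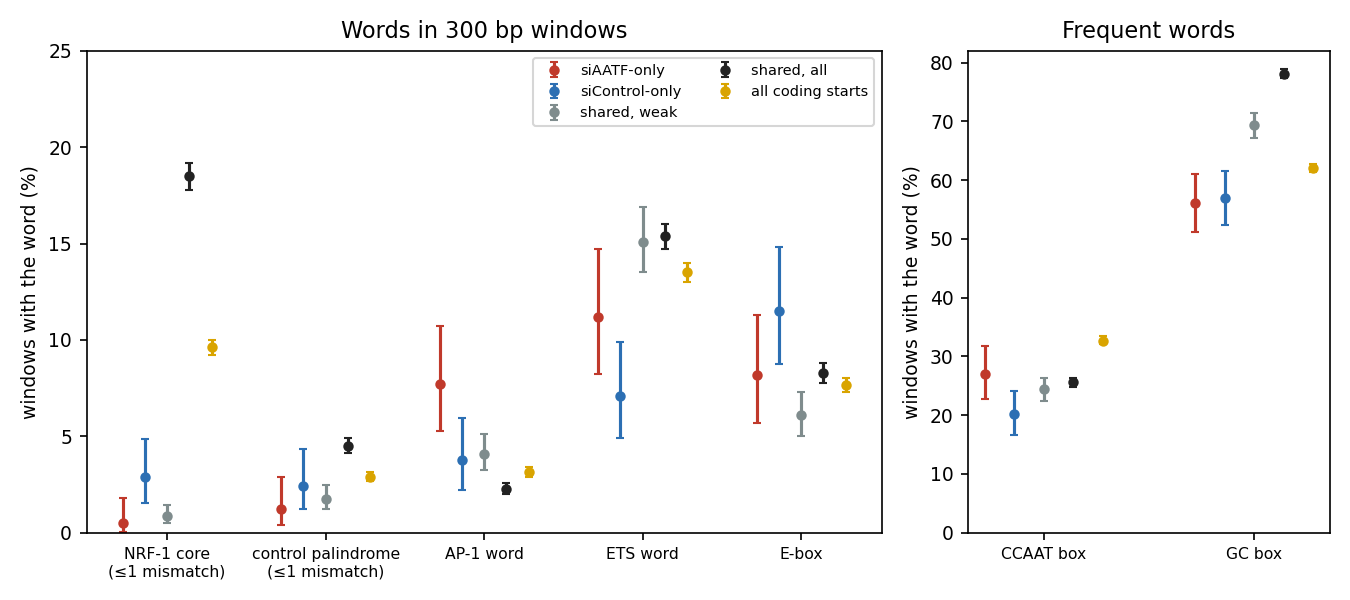
Points give the share of windows of 300 bp (y axis, percent) that hold each word on either strand (x axis), for 4 sets of promoter peaks and for all canonical coding starts, with exact 95% intervals as bars. The NRF-1 core stands at 0.496% in siAATF-only peaks, 0.887% in weak shared and 18.5% in all shared promoter peaks, and the AP-1 word at 7.69%, 4.1% and 2.29%.

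As for the AP-1 word, the intervals of the siAATF-only and siControl-only sets overlapped for the other 7 words. The GC box GGGCGG, the word of SP1 and its relatives, was in 226 of 403 central windows (56.1%, 51.1 to 61.0%), against 57.0% of siControl-only and 69.3% of weak shared peaks. The ETS word CCGGAAG was in 45 (11.2%, 8.26 to 14.7%), against 7.1% (4.9 to 9.87%) and 15.1%. The CCAAT box was in 109 (27.0%, 22.8 to 31.7%), against 20.2% (16.6 to 24.2%) and 24.4%. The E-box CACGTG was in 33 (8.19%, 5.7 to 11.3%), against 11.5% and 6.1%. The CRE word TGACGTCA was in 7 (1.74%), against 1.33% of siControl-only peaks. The TEAD word ACATTCC was in 14 (3.47%, 1.91 to 5.76%), against 1.11% (0.361 to 2.57%) of siControl-only and 1.33% (0.854 to 1.97%) of weak shared peaks. The TATA word TATAAA was in 22 (5.46%, 3.45 to 8.15%), against 3.1% of siControl-only peaks and 8.01% of all canonical starts.

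No subunit gene of oxidative phosphorylation (OXPHOS) was among the 422, which the small size of the lists allows at the background share. Of 37 complex I subunit genes and 41 subunit genes of complexes II to V, 0 had a siAATF-only promoter peak (upper limits 9.49% and 8.6%), against 2.14% of all coding genes, while 34 and 39 of them had a siControl promoter peak. In siControl-only peaks there was 1 of the 41, ATP5F1A, a gene that also had another promoter peak in siAATF. Of 27 regulators of mitochondrial DNA and biogenesis there was 1, PPARGC1A, the coactivator PGC-1α, whose peak (chr4:23891403-23891678) had a fold enrichment of 4.12 and a −log10 q of 2.60 with its midpoint in a coding exon, and no siControl promoter peak. Of 17 glycolysis genes there was also 1, PKM, the pyruvate kinase of growing cells, at an alternative start (chr15:72514844-72515144) with a −log10 q of 2.14, beside a siControl peak elsewhere in the gene. TRIB3, a stress-induced pseudokinase, was the 1 gene of 26 for heat shock and the unfolded protein response (chr20:343220-343514, 3.50 and 1.62), and it had a siControl-only peak 958 bp away.

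The remaining lists had no gene among the 422: mitochondrial dynamics (0 of 16), p53 targets (0 of 25), the BCL2 family (0 of 21), AP-1 factors (0 of 12), glioblastoma drivers (0 of 28), glial and neural markers (0 of 31) and cell cycle regulators (0 of 36). In siControl-only peaks the same lists had 5 of 28 glioblastoma drivers (CCND2, CDK6, MYC, PDGFRA and STAG2) and 4 of 31 glial and neural markers (AQP4, CSPG4, GAP43 and NES). They also had 3 of 36 cell cycle regulators and 2 of 21 BCL2 family genes (BCL2L2 and BIK), beside 2.45% of all coding genes. Of the genes named here, CDK6, MYC, STAG2 and BCL2L2 had another promoter peak in siAATF, and the others had none. These counts are small, and whether the 2 condition-only sets differ on a list was not tested. An upper limit of 12.3% for the drivers and 11.2% for the markers leaves the background share of 2.14% well inside what 0 allows.

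Families defined by gene symbol gave a similar picture of small numbers. Potassium channel genes had 7 of 95 (7.37%, 3.01 to 14.6%), with an interval above the share of 2.14% over all coding genes: KCNB2, KCNH3, KCNJ6, KCNJ8, KCNK10, KCNK12 and KCNN3. The same family had 8 of 95 (8.42%) in siControl-only peaks, and KCNK12 and KCNN3 were counted in both condition-only sets. It was singled out of 18 families and 12 lists for its interval, which was not adjusted for their number. ZNF genes had 14 of 512 (2.73%, 1.5 to 4.55%) and solute carriers 8 of 385 (2.08%, 0.901 to 4.05%), near the background. Of 80 cytosolic ribosomal protein genes there were 3, RPL29, RPS14 and RPS2, with fold enrichments of 3.70, 3.69 and 3.46. Of 78 mitochondrial ribosomal protein genes there was 1, MRPL13, which shares its peak with MTBP at 3.82. Of 391 olfactory receptor genes there was 1, OR1F1, and the same 0.256% of the family had a siControl promoter peak. The other families held 4 of 116 (Rab GTPases and regulators), 3 of 238 (TMEM genes), 2 of 45 (sodium and calcium channels), 2 of 86 (collagens, laminins and integrins) and 2 of 172 (chemokines, interleukins, interferons and their receptors). Keratins had 1 of 149, glutamate and GABA receptors 1 of 50 and cadherins 1 of 88, while HOX genes (39), clustered histone genes (69) and genes with a clone-based name (85) had 0.

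The peaks were spread over all 23 chromosomes considered, from 1 on chromosome 13 to 40 on chromosome 1. As a share of siAATF promoter peaks, 22 chromosomes lay between 2.18% and 5.71%. Chromosome 13, singled out here because it was the lowest, had 1 of 211 (0.474%, 0.012 to 2.61%), at ALG5, whose promoter also had a siControl peak in the same window. The siControl-only share there was 8 of 218 (3.67%, 1.6 to 7.1%). On chromosome 17 the siAATF-only share was 24 of 705 (3.4%, 2.19 to 5.02%) and the siControl-only share 45 of 722 (6.23%, 4.58 to 8.25%). Intervals overlapped on both chromosomes.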

How the data were processed

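NRF-1 ChIPmentation libraries of U251 cells were compared, siControl against siAATF, with 1 list per condition. Per the study's methods, reads were aligned to hg19 with Bowtie2 and broad peaks were called with MACS2 in an ATAC-seq pipeline run with defaults, which may shift or extend reads and so move peak edges. No input library was named. The study's methods speak of duplicates, but the sample titles number each sample as replicate 1. Whether reads were pooled is not given in the sources used here. Peak positions were deposited by the authors, as was the fold enrichment (a ratio over local background within each list). The −log10 p and −log10 q were likewise deposited by the authors, as was a display score, which was not used. For broad peaks these values and the fold enrichment describe the whole called region, and they were not recomputed. The lowest −log10 q was 1.02 in the siAATF list and 1.03 in the siControl list. Read totals were not part of the lists, so depth was unknown. Peaks on chromosomes 1 to 22 and X were used.

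A peak was shared if it overlapped the other list by at least 1 bp. Promoters were 1 kb on either side of 89007 coding transcript starts (GENCODE release 44 lifted to hg19), and a canonical start was that of the Ensembl canonical transcript. Words were counted in the hg19 sequence of each peak and of its central 300 bp, on both strands. Shares carry exact Clopper-Pearson 95% intervals and medians exact order-statistic intervals; both cover counting error only, since peaks are not replicates. Overlaps and word searches were tested on simulated data. Python 3.11.15, pandas 2.3.3, numpy 2.4.6, scipy 1.17.1 and pysam 0.24.0 were used.

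The set of peaks, the 12 gene lists, 18 families and 10 words were chosen with earlier results of these data known. The rule for named peaks took the 12 highest by fold enrichment, 5 by −log10 q, the 5 widest, those with the NRF-1 core, those of listed genes and the 15 strongest that spanned a canonical start of a gene with no siControl promoter peak. It also took the 12 genes of highest siAATF −log10 q with both kinds of condition-only peak, and 3 peaks on each side of each limit of the selection. Genes outside it were named after their values were seen. A few genes, counted in the totals, and 1 family are not reported here by name. Alternatives changed peak strength, overlap, promoter width, transcripts, ranking and the core.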

Additional observations from a re-analysis of the deposited data

How the results depend on the processing

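For 8 results, 69 values were recomputed over settings that number 12 with the reported one included. Of these values, 43 stayed within the set margin (1.5 times for counts, the interval for shares and medians) and 26 moved. GC content in this section is over whole peaks, where the median of the 403 was 62.5%, and not over the central 300 bp. A siAATF −log10 q of at least 5 left 12 peaks and 12 genes, with 33.3% of the genes having another siControl promoter peak. These peaks had a median rank of 45, a median GC content of 58.2%, the core in 0% and a start spanned by 75%. Reciprocal overlap of 50% raised the set to 853 peaks and 852 genes, with 73.2%, a rank of 15.7, GC of 64.4% and 64% spanning a start. The share of genes with another siControl promoter peak was 46% as reported. It was 39.2% with siControl peaks of −log10 q of at least 2, 39.1% with gaps of up to 500 bp counted as shared, 36% with promoters of 500 bp, 51.1% with 2 kb, 21.1% with canonical starts alone and 39.8% with basic transcripts. With promoters of 500 bp and 2 kb, 67.5% and 47.6% of peaks spanned a start. The AP-1 word was in 12% of whole peaks with 2 kb and 5.26% with canonical starts, against 8.68% as reported, and GC with canonical starts was 63.5%. The exact core was in 0%, and ranking by −log10 q gave a median of 10.3. The causes of these shifts were not tested, beyond the construction of each set.

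No paired analysis was possible because each condition had 1 list. Leaving out a replicate was likewise not possible. With 1 list per condition, unknown depth and most peaks near the calling threshold, presence in siAATF alone is not shown to be a change in occupancy.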
